A study of Mus musculus with 6 samples.

Results

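The enzymes that build sialylated glycans and selectin ligands were examined in CD8+ T cells expanded in IL-2 with or without further cytokines. The 10 genes were chosen by function, with no threshold on their values but with earlier results of these data known. The set comprises *Cmah*, the sialyltransferase genes *St3gal1*, *St3gal4*, *St3gal6*, and *St6gal1*, the fucosyltransferase gene *Fut7*, the core 2 branching gene *Gcnt1*, the galactosyltransferase gene *B4galt1*, and the scaffold genes *Selplg* and *Cd44*. They are 10 of the 57126 genes in the count table, and all 10 were among the 26154 genes tested. The cells came from lymph nodes and spleens of OT-I transgenic mice, whose T cell receptor recognizes an ovalbumin peptide. In all 6 samples they were cultured for 6 days with nano-aAPCs, dextran-coated iron oxide particles that carry the peptide on H-2Kb together with anti-CD28. The 3 TEff samples were expanded in IL-2, and the 3 TRM-like samples in the same IL-2 plus TGF-β and IL-15. IL-15 and TGF-β were added together, so their parts in a difference cannot be told apart. The mice's age and sex are not given in the labels, and the labels do not say whether replicates were separate mice or cultures, so p-values measure only the spread between these samples. These are cells grown in a dish with artificial antigen-presenting particles, not cells taken from a tissue. In bulk RNA, fewer cells with a transcript and less transcript per cell cannot be told apart.

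Sialic acid is the acidic sugar that ends many glycan chains on T cells. ST3Gal enzymes attach it to position 3 of galactose and ST6Gal enzymes to position 6, and Cmah changes the sugar itself, from the N-acetyl to the N-glycolyl form, before it is attached. Selectins are the lectins by which blood cells roll on vessel walls, and P- and E-selectin bind a sialylated and fucosylated cap that sits on core 2 O-glycans of PSGL-1, the product of *Selplg*. Gcnt1 makes the core 2 branch, galactosyltransferases extend it, ST3Gal enzymes sialylate it, and Fut7 adds the fucose that completes the cap. Activated CD8+ T cells are known to gain such ligands and to lose sialic acid from core 1 O-glycans, and ST6Gal1 makes the glycan that the B cell lectin CD22 binds.

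The deposited values are whole-number read counts per gene. CPM is the usual depth-scaled count, here on library sizes from the TMM method, and a level per kilobase is that CPM divided by the gene's length in the count table. A gene was past the threshold when its log2 fold change exceeded 0.58 in size and its adjusted p was under 0.05. All adjusted p-values are from the quasi-likelihood test of edgeR, adjusted by Benjamini-Hochberg over all 26154 genes unless another fit is named. A positive log2 fold change is higher in the TRM-like samples. Total counts were 18319013 to 21960760 in the TEff samples and 21178756 to 23622621 in the TRM-like samples. TRM-like replicate 3 stood apart from the other TRM-like samples, and the log2 fold changes and the counts of calls were therefore also computed without it. The number of genes with any count was 35130 and 35559 in TRM-like replicates 1 and 2, and 24229 to 24908 in the other 4 samples.

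The cells carried the transcripts of CD8+ T cells. The 10 T cell markers examined summed to 3460 to 3570 CPM in the TEff samples and 4060 to 5170 CPM in the TRM-like samples, and *Cd4* had at most 2 counts in any sample. *St6gal1* and *Cmah* are also active in B cells and other leukocytes, so the markers of those cells are given here. B cell markers other than *Ighm* (5 of the 6 on the list) summed to 6.49 to 8.2 CPM in the TEff samples and 7.29 to 11.3 CPM in the TRM-like samples, with *Ms4a1* at 0 to 2 counts per sample. *Ighm* alone was at 623 to 636 CPM and 697 to 1010 CPM in the TEff and TRM-like samples. The 8 myeloid markers summed to 0.549 to 1.42 CPM in the TEff samples and 0.138 to 1.53 CPM in the TRM-like samples, and 2 of them, *S100a8* and *S100a9*, had 0 counts in every sample. The 2 NK cell markers summed to 9.83 to 22.0 CPM in the TEff samples and 0.0922 to 8.77 CPM in the TRM-like samples, nearly all of it *Klrb1c*, which CD8+ T cells can also express. The 6 dendritic cell markers summed to 25.6 to 27.9 and 17.9 to 18.9 CPM in the TEff and TRM-like samples, the 3 markers of CD4+ T cells to 35.7 to 41.4 and 18.2 to 25.9 CPM, and the 3 of stroma and endothelium to 46.3 to 63.2 and 19.5 to 41.2 CPM. The 5 erythroid and platelet markers were at 0 in the TEff samples and summed to at most 0.184 CPM in the TRM-like samples. The part of these other cell types in the results below was not tested. *Cdh1* and *Itgae*, genes of tissue residency, were at 63.8 to 72.9 and 284 to 742 CPM in the TRM-like samples, and at 0.457 to 0.709 and 20.06 to 29.97 CPM in the TEff samples.

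Of the 10 genes, 3 were past the threshold. *St6gal1* and *Cmah* fell in the TRM-like samples, about 9.46-fold and 3.09-fold, and *Gcnt1* rose, about 4.88-fold. Over all genes tested, 3.01% were past the same threshold, 1.52% higher and 1.48% lower, and it was 3.97% of the 14822 genes that, like all 10, had 10 or more counts in each sample. The TRM-like samples all lay above the TEff samples for 2 of the 10 genes and all below for 3, and over all genes tested the groups did not overlap in 20.3%. The median log2 fold change was -0.18 over the 10 genes and 0.02 over all genes tested. The direction and the call of these 3 genes held in all 17 alternatives, the fit without TRM-like replicate 3 among them. The alternative that drops the fold limit reuses the main fit, so there they could not change.

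**Figure D1:**
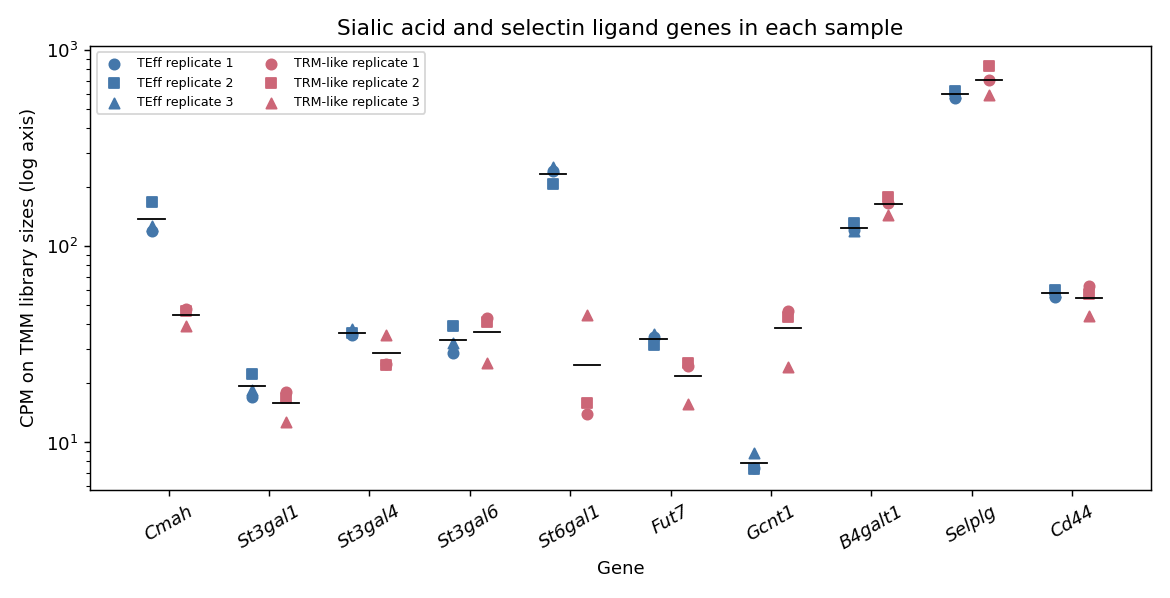
CPM on TMM library sizes (log axis) of the 10 genes in each of the 6 samples, with TEff samples in blue, TRM-like samples in red, marker shape for the replicate number, and a black line at the mean of each group. The groups lie apart for *Cmah*, *St6gal1*, *Fut7*, *Gcnt1*, and *B4galt1*, and overlap for the other 5 genes.

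The sequence before the transcription start is shown for the 3 genes past the threshold, since TGF-β acts through SMAD proteins that bind the letters CAGAC. The sequences are from a RefSeq table on GRCm38.p6, placed on GRCm39 by exact match, run 5′ to 3′ on the gene's strand, and stop before the start of the gene in the GENCODE annotation. Each is the most upstream of the gene's RefSeq starts, of which *Cmah* has 2, *St6gal1* 3, and *Gcnt1* 3, and counts per gene do not show which start these cells used. Capitals mark CAGAC or its reverse complement. The *Gcnt1* stretch lies at chr19:17350209-17350458 on the reverse strand, the *St6gal1* stretch at chr16:23043240-23043459 on the forward strand, and the *Cmah* stretch at chr13:24511137-24511221 on the forward strand.
Gcnt1: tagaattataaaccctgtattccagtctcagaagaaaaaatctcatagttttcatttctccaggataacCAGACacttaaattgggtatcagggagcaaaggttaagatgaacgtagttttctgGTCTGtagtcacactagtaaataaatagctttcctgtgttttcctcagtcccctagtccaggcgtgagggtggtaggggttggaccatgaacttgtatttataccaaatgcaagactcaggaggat
St6gal1: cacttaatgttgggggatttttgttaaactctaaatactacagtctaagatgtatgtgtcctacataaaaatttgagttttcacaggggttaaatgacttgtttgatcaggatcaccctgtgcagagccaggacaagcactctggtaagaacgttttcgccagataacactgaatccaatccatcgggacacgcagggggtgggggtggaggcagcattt
Cmah: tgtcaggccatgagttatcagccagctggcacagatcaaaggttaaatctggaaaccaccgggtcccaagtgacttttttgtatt

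The *Gcnt1* stretch held CAGAC 2 times, 181 and 126 bases before the RefSeq start and once on each strand, and the stretches of *St6gal1* and *Cmah* shown here did not hold it. RefSeq windows of 250 bases before a start were found for 8 of the 10 genes, 15 windows in all, and not for *Selplg* and *St3gal1*. CAGAC occurred on either strand in 5 of the 15 windows, those of *Cmah*, *Fut7*, *Gcnt1*, and *St6gal1*, and in 42.2% of all 32851 windows. GGGCGG, which SP and KLF factors bind, occurred in 4 of the 15, those of *B4galt1*, *Fut7*, *St3gal4*, and *St3gal6*, and in 32.7% of all. TCACACC, a T-box motif, occurred in 1 of the 15, at *Cmah*, 103 bases before that RefSeq start and within the gene as GENCODE draws it, and in 3.33% of all. CACGTG, an E-box, occurred in 0 of the 15 and in 6.02% of all. None of these motifs contains another, and a match says only that the letters are present.

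*St6gal1* (ENSMUSG00000022885; chromosome 16 of GRCm39, 23043460 to 23179103, forward strand) encodes the enzyme that sialylates position 6 of galactose on N-glycans. It was at 242.8, 208.4, and 254.5 CPM in TEff replicates 1, 2, and 3 and at 14.04, 15.99, and 44.64 CPM in TRM-like replicates 1, 2, and 3. Every TRM-like sample was thus far below every TEff sample, and TRM-like replicate 3 was higher than the other TRM-like samples. This was a log2 fold change of -3.24 (SE 0.42, 95% confidence interval -4.18 to -2.30, adjusted p = 0.00408). Without TRM-like replicate 3 it was -3.98, which was the lowest value over the fits that leave out 1 sample, and the highest was -2.96.

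*Cmah* (ENSMUSG00000016756; chromosome 13, 24511222 to 24661360, forward strand) encodes the hydroxylase that turns CMP-N-acetylneuraminic acid into its N-glycolyl form. It was at 120.0, 167.8, and 127.3 CPM in the TEff replicates and at 48.2, 46.7, and 39.5 CPM in the TRM-like replicates. The TRM-like samples were close to one another here, replicate 3 included, and none reached the lowest TEff sample. In the fit, its log2 fold change was -1.63 (SE 0.17, 95% confidence interval -2.01 to -1.25, adjusted p = 0.00138). The fits that leave out 1 sample gave -1.71 to -1.47, and -1.55 without TRM-like replicate 3. Both of the lower genes act on sialic acid, but at different steps, the one on the form of the sugar and the other on its linkage.

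The other sialyltransferases on the list add sialic acid to position 3 of galactose, and none of them was past the threshold. *St3gal1* (ENSMUSG00000013846; chromosome 15, 66974724 to 67048690, reverse strand), which caps core 1 O-glycans, was at 17.0, 22.5, and 18.6 CPM in the TEff replicates and 18.1, 17.0, and 12.7 CPM in the TRM-like replicates. The groups overlapped, and the log2 fold change was -0.28 (SE 0.18, 95% confidence interval -0.69 to 0.12, adjusted p = 0.542). Without TRM-like replicate 3 it was -0.15.

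*St3gal4* (ENSMUSG00000032038; chromosome 9, 34957872 to 35034889, reverse strand) acts on selectin ligand chains. It was at 35.4, 36.0, and 37.7 CPM in the TEff replicates and 25.3, 24.7, and 35.4 CPM in the TRM-like replicates. TRM-like replicates 1 and 2 were below every TEff sample, and replicate 3 was level with the lowest of them. Its log2 fold change was -0.35 (SE 0.16, 95% confidence interval -0.72 to 0.01, adjusted p = 0.360). Without TRM-like replicate 3 it was -0.55, short of the fold limit, at an adjusted p of 0.00325, the lowest of the 17 alternatives. Apart from glmTreat, which tests for a fold beyond 1.5, the alternatives gave an adjusted p of up to 0.751.

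*St3gal6* (ENSMUSG00000022747; chromosome 16, 58286438 to 58344780, reverse strand) also acts on selectin ligand chains. It was at 28.6, 39.5, and 32 CPM in the TEff replicates and at 42.9, 41.4, and 25.4 CPM in the TRM-like replicates. Replicates 1 and 2 of the TRM-like cells were the highest of the 6 samples and replicate 3 the lowest, so the samples of that group lay on both sides of the TEff cells. Its log2 fold change was 0.13 (SE 0.22, 95% confidence interval -0.35 to 0.62, adjusted p = 0.835), and 0.33 without TRM-like replicate 3 (adjusted p = 0.104, the lowest of its alternative fits, whose adjusted p ran up to 1).

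The counts of *St3gal4* and *St3gal6* carry a further limit. Exons of *St3gal6* share 3966 bases with *Dcbld2* on the opposite strand, which had 777 counts over the 6 samples, and exons of *St3gal4* share 1220 bases with the noncoding gene *4930581F22Rik*, also opposite, which had 3192. Shorter overlaps with exons on the opposite strand were present for *St6gal1* (217 bases, with a gene of 54 counts) and *Cmah* (229 bases, 31 counts). They were also present for *Cd44* (207 bases, 96 counts) and *Selplg* (541 bases, with a gene not in the count table). The kit keeps the strand, but the strand setting of the counting is not given in the sources used here, so reads of these overlaps may not have been told apart.

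Per kilobase, the transcripts of the 20 sialyltransferases examined (the 4 above and 16 others) summed to 107, 103, and 110 CPM per kilobase in the TEff replicates and 54.8, 53.7, and 61.5 CPM per kilobase in the TRM-like replicates. *St6gal1* made up 46.8%, 41.8%, and 47.9% of that sum in the TEff replicates and 5.30%, 6.16%, and 15.0% in the TRM-like replicates. Its level per kilobase was 1.46 ± 0.199 times the summed level of the 6 ST3Gal genes in the TEff samples and 0.174 ± 0.118 times in the TRM-like samples (SD, n = 3). The *St6gal1* transcript was thus above the ST3Gal transcripts together in each TEff sample and below them in each TRM-like sample. The sum over 20 genes and the share in it were chosen after the values were seen, and neither was tested.

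**Figure D2:**
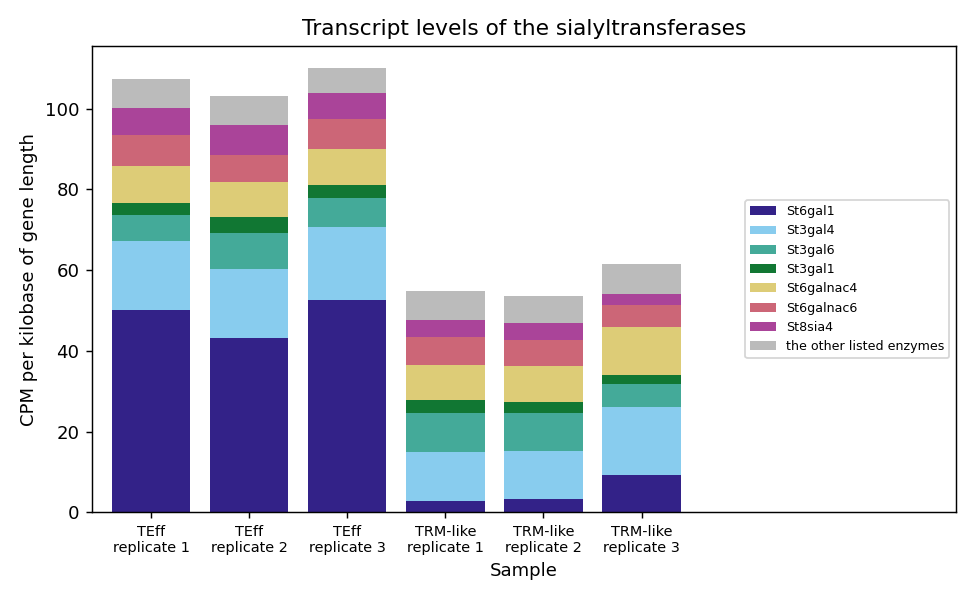
Stacked CPM per kilobase of gene length of 20 sialyltransferase genes in each sample, with 7 genes coloured and the other 13 in grey. The sum was 103 to 110 in the TEff samples and 53.7 to 61.5 in the TRM-like samples, and the dark segment of *St6gal1* is the part that differed most.

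Within the 6 ST3Gal genes, *St3gal4* made up 51.8 ± 2.58% of the level per kilobase in the TEff samples and 46.1 ± 9.30% in the TRM-like samples (SD, n = 3). *St3gal6* made up 22.4 ± 2.70% and 28.2 ± 7.65% of it. In TRM-like replicates 1 and 2, the share of *St3gal6* was 32.8% and 32.5%, above each TEff sample, and in replicate 3 it was 19.4%, below each. These shares depend on the length scaling, and without it *St3gal6* had a larger share of the ST3Gal counts than *St3gal4* in the TRM-like samples, at a mean of 38.2% against 30.4%, although in replicate 3 it was 29% against 40.4%.

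Of the 3 genes that branch, extend, and fucosylate the selectin ligand chain, *Gcnt1* was past the threshold. *Gcnt1* (ENSMUSG00000038843; chromosome 19, 17303505 to 17350208, reverse strand) encodes the branching enzyme that makes core 2 O-glycans. It was at 7.45, 7.29, and 8.84 CPM in the TEff replicates and at 46.9, 43.7, and 24.3 CPM in the TRM-like replicates. Every TRM-like sample was above every TEff sample, with replicate 3 the lowest of them. This was a log2 fold change of 2.29 (SE 0.25, 95% confidence interval 1.72 to 2.85, adjusted p = 0.00183). With 1 sample left out it was between 2.12 and 2.52, the highest without TRM-like replicate 3.

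Gcnt1 and St3gal1 use the same core 1 glycan, which Gcnt1 branches and St3gal1 caps, so their transcripts were set side by side. The level of *Gcnt1* per kilobase divided by that of *St3gal1* was 0.519, 0.384, and 0.564 in the TEff replicates and 3.07, 3.05, and 2.27 in the TRM-like replicates. The ratio was above 1 in all TRM-like samples, where replicate 3 was the lowest, and below 1 in all TEff samples. The ratio was chosen after the values were seen and was not tested.

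*Fut7* (ENSMUSG00000036587; chromosome 2, 25313266 to 25316386, forward strand), which encodes the fucosyltransferase that completes the selectin-binding cap, was at 34.6, 31.3, and 35.7 CPM in the TEff replicates and at 24.5, 25.4, and 15.6 CPM in the TRM-like replicates. All TRM-like samples were below all TEff samples, and replicate 3 was the lowest. A log2 fold change of -0.63 (SE 0.19, 95% confidence interval -1.06 to -0.20) was not past the threshold, at an adjusted p of 0.144. It was past the threshold in 2 of the 17 alternatives, the fits with no filter on low counts (-0.64, adjusted p = 0.00885) and with a block for the replicate number (-0.66, adjusted p = 0.00382, the lowest of the 17). Those 2 fits also had more genes past the threshold over all genes, 1868 and 2034, against 786 in the main fit. Without TRM-like replicate 3 the log2 fold change of *Fut7* was -0.45, short of the fold limit, at an adjusted p of 0.0141. Apart from glmTreat, the alternatives gave *Fut7* an adjusted p of up to 0.426.

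*B4galt1* (ENSMUSG00000028413; chromosome 4, 40804602 to 40854046, reverse strand), which encodes a galactosyltransferase that builds N-acetyllactosamine, was at 120.8, 131.7, and 119.4 CPM in the TEff replicates and at 167.4, 178.9, and 145.2 CPM in the TRM-like replicates. The groups did not overlap. Their log2 fold change of 0.40 (SE 0.13, 95% confidence interval 0.10 to 0.70, adjusted p = 0.194) was short of both limits. It stayed under the fold limit in all 17 alternatives, at 0.33 to 0.47, the highest without TRM-like replicate 3 (adjusted p = 0.00569). The values of the selectin ligand chain genes were thus not all on one side, with *Gcnt1* higher and *Fut7* lower in every TRM-like sample than in any TEff sample. *Fut7* was not past the threshold, and over all genes tested the groups did not overlap in 20.3%.

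**Figure D3:**
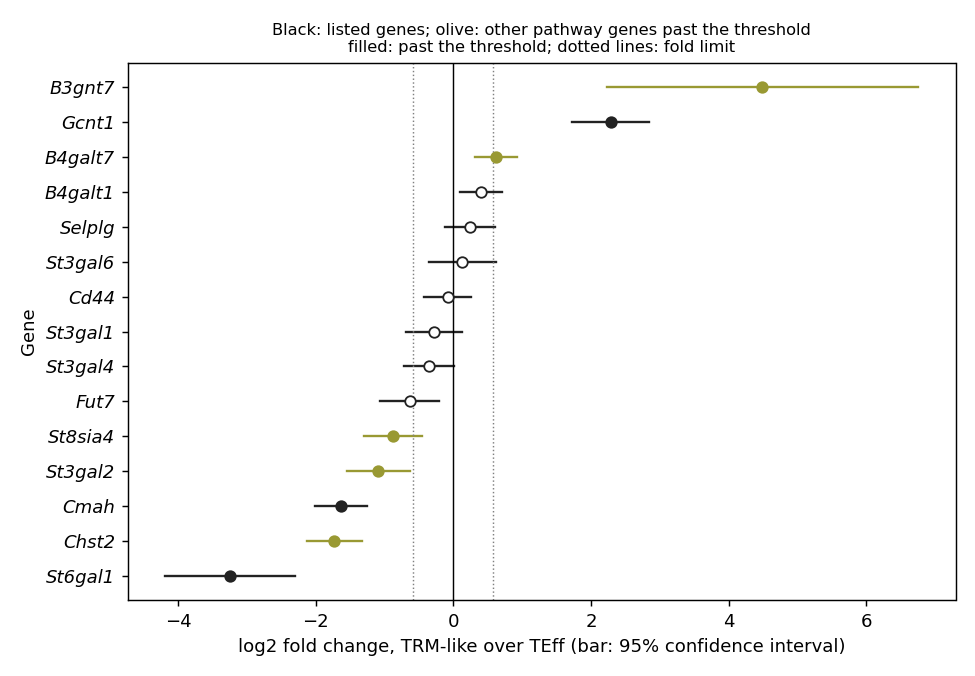
Log2 fold changes, TRM-like over TEff, with 95% confidence intervals, for the 10 listed genes (black) and the 5 other pathway genes past the threshold (olive), where a filled point is past the threshold and an open one is not. Of the listed genes, *St6gal1* and *Cmah* lie left of zero and *Gcnt1* right of it with their whole intervals past the dotted fold limits, and the 7 others are open. Among the olive genes, *B3gnt7* passed the filter on low counts through its TRM-like samples alone.

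The scaffolds that carry these glycans were not past the threshold. *Selplg* (ENSMUSG00000048163; chromosome 5, 113956597 to 113970705, reverse strand), the gene of PSGL-1, was at 570.3, 623.5, and 606.4 CPM in the TEff replicates and at 705.1, 831.6, and 588.9 CPM in the TRM-like replicates. TRM-like replicates 1 and 2 were above every TEff sample, and replicate 3 was within their range. The log2 fold change was 0.24 (SE 0.16, 95% confidence interval -0.12 to 0.60, adjusted p = 0.559), and 0.35 without TRM-like replicate 3 (adjusted p = 0.0372, the lowest of the 17 alternatives, and short of the fold limit). Apart from glmTreat, the alternatives gave an adjusted p of up to 0.931.

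*Cd44* (ENSMUSG00000005087; chromosome 2, 102641486 to 102732010, reverse strand), the hyaluronan receptor that serves as an E-selectin ligand when it carries the right glycans, was at 55.4, 59.8, and 58.2 CPM in the TEff replicates and at 62.5, 57.3, and 44.3 CPM in the TRM-like replicates. The groups overlapped, with TRM-like replicate 1 the highest sample and replicate 3 the lowest. The log2 fold change was -0.08 (SE 0.15, 95% confidence interval -0.42 to 0.26, adjusted p = 0.862), and the sign turned to 0.04 without TRM-like replicate 3.

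Compared per kilobase, the levels of the 10 genes spanned a wide range. In the TEff samples *Selplg* was highest at 323 ± 14.6 CPM per kilobase, followed by *St6gal1* at 48.6 ± 4.95, *B4galt1* at 29.3 ± 1.58, and *St3gal4* at 17.4 ± 0.58 (SD, n = 3). *Gcnt1* was lowest at 1.61 ± 0.174 CPM per kilobase, below *St3gal1* at 3.34 ± 0.486. The ranges of neighbours in this order did not overlap, apart from *Fut7* at 14.8 ± 0.991 and *Cmah* at 13.6 ± 2.53 CPM per kilobase. In the TRM-like samples *Selplg* was again highest, at 382 ± 65.4 CPM per kilobase, followed by *B4galt1* at 38.7 ± 4.05 and *St3gal4* at 13.6 ± 2.87. *Cd44*, *Fut7*, *St3gal6*, *Gcnt1*, *St6gal1*, and *Cmah* followed between 9.67 and 4.40 CPM per kilobase, and the ranges of neighbours among these 6 overlapped. *St3gal1* was lowest there and did not overlap *Cmah*, at 2.74 ± 0.492 CPM per kilobase. By sample, *St6gal1* took place 2 in each TEff sample and places 10, 9, and 4 in TRM-like replicates 1, 2, and 3. *Gcnt1* took place 10 in each TEff sample and places 7, 7, and 8 in the TRM-like replicates. The length used counts the bases of all annotated exons, so a level is understated where the cells leave long exons out. Which exons were used was not examined, also not for *Cmah*, the longest of the 10 genes at 10180 bases.

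TRM-like replicate 3 was the highest TRM-like sample for *St6gal1* and *St3gal4* and the lowest for the others of the 10 genes. Its distance from the TEff samples did not change in one direction. Relative to the mean of the TEff samples on the log2 CPM scale, *St6gal1* was at -3.97 in TRM-like replicates 1 and 2 together and at -2.39 in replicate 3, and *Gcnt1* was at 2.53 and 1.63. In both genes replicate 3 lay between the TEff samples and the other TRM-like samples. *Cmah* was at -1.53 in replicates 1 and 2 and -1.79 in replicate 3, and *Fut7* at -0.44 and -1.11, so there replicate 3 lay farther from the TEff samples. *St3gal6* was on opposite sides, at 0.35 and -0.38. Replicate 3 was also nearer to the TEff mean for *St3gal4*, *B4galt1*, and *Selplg*, and farther for *St3gal1* and *Cd44*.

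**Figure D4:**
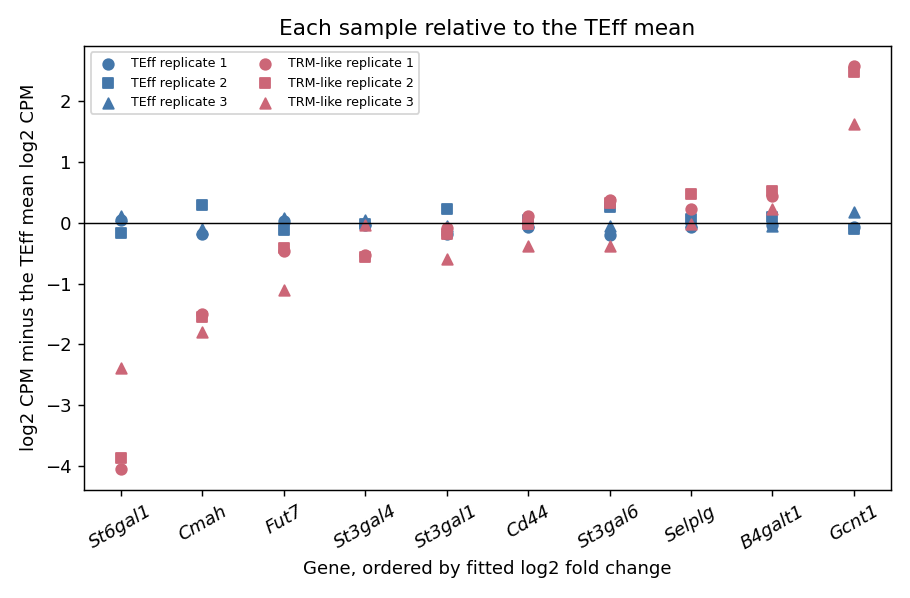
Log2 CPM of each sample minus the mean log2 CPM of the TEff samples, for the 10 genes in order of their fitted log2 fold change. TRM-like replicate 3 (red triangles) lies nearer to the TEff mean than the other TRM-like samples for *St6gal1*, *Gcnt1*, *St3gal4*, *B4galt1*, and *Selplg*. It lies farther for *Cmah*, *Fut7*, *St3gal1*, and *Cd44*, and on the other side of that mean for *St3gal6*.

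The 10 genes were then set among the others of the pathway, 93 listed genes of which 90 had a row under their symbol and 75 were tested. Of the 75, 2 were higher and 3 lower past the threshold, and the median log2 fold change was 0.06, where over all genes tested 3.01% were past the threshold and the median was 0.02. Of the 2 higher genes, *B3gnt7* passed the filter on low counts through its TRM-like samples alone, so a difference was built into its being tested. With any sample other than TRM-like replicate 3 left out, *Chst2* was past it and the other 4 were not. In those fits 263 to 443 of all genes tested were past it, against 786 with all samples. For sialic acid supply and removal, 0 of 13 tested genes were past the threshold by edgeR, DESeq2, or limma-voom, and 4 had an unadjusted edgeR p under 0.05 (*Gne*, *Cmas*, *Neu3*, and *Ctsa*). Such a p was common over all genes tested, where an edgeR p of 0.0495 had an adjusted p of 0.336. The share of all genes tested under it was not counted. The counts of genes under it, here and below, are therefore description only. In the lists with calls they were 3 of 11 other sialyltransferase genes, 7 of 26 O-glycan genes, and 2 of 6 sulfation genes. *Gne*, the rate-limiting enzyme of sialic acid synthesis, was at 29.5 to 33.4 CPM in the TEff samples and 42.5 to 45.9 CPM in the TRM-like samples, without overlap, and its log2 fold change of 0.52 was short of both limits (adjusted p = 0.0607). *Cmas*, which activates sialic acid to the CMP form that Cmah and the sialyltransferases use, was at 54.9 to 61.0 CPM and 37.8 to 46.4 CPM, and its log2 fold change was -0.47 (adjusted p = 0.108).

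Of 11 other sialyltransferase genes tested, 2 fell. *St3gal2*, whose product caps core 1 glycans and gangliosides, was at 8.32, 7.19, and 6.69 CPM in the TEff replicates and 2.92, 3.41, and 4.10 CPM in the TRM-like replicates, with no overlap (log2 fold change -1.09, SE 0.20, adjusted p = 0.0234). *St8sia4*, a polysialyltransferase gene, was at 92.6, 106.6, and 90.0 CPM and 60.5, 58.5, and 38.6 CPM (log2 fold change -0.88, SE 0.18, adjusted p = 0.0393). With 1 sample other than TRM-like replicate 3 left out, the adjusted p was 0.0906 to 0.167 for *St3gal2* and 0.0616 to 0.168 for *St8sia4*. Without TRM-like replicate 3 both were past the threshold, at log2 fold changes of -1.24 and -0.70, and so was *St8sia6*, which was higher (3.07, adjusted p = 0.0235). *St8sia6* was near the floor, with 1, 0, and 1 counts in the TEff replicates and 8, 7, and 0 counts in the TRM-like replicates. Its counts thus came mainly from TRM-like replicates 1 and 2, the samples with a count on the most genes.

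Among the 9 fucosylation genes tested, 0 were past the threshold by edgeR, DESeq2, or limma-voom, and 2 had an unadjusted edgeR p under 0.05 (*Fcsk* and *Slc35c1*). *Fut4*, which encodes the other leukocyte enzyme that can fucosylate such caps, was at 34.4 to 41.8 CPM in the TEff samples and at 23.7, 25.1, and 46.7 CPM in the TRM-like replicates. TRM-like replicates 1 and 2 were thus below and replicate 3 above the TEff samples. Its log2 fold change was -0.28 in all samples and -0.67 without TRM-like replicate 3, where it was past the threshold (adjusted p = 0.00169, against 0.675 in all samples).

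Among 26 genes of O-glycan core and chain extension, 2 were past the threshold as higher by edgeR, 2 by DESeq2, and 0 by limma-voom. *B4galt7*, whose product builds the linker of glycosaminoglycan chains, was at 28.2, 31.2, and 26.7 CPM in the TEff replicates and 44.3, 48.8, and 39.4 CPM in the TRM-like replicates (log2 fold change 0.62, SE 0.14, adjusted p = 0.0458). *B3gnt7*, which encodes a chain-extending transferase, had 1, 0, and 0 counts in the TEff replicates and 20, 9, and 5 counts in the TRM-like replicates. The ratio of the summed counts over the library sizes was 30.1, with a 95% counting interval of 5.05 to 1220, and the adjusted p was 0.0498. It passed the filter on low counts through its TRM-like samples alone, so a difference was built into its being tested. TRM-like replicates 1 and 2 also had a count on more genes than any other sample, as given above. Of the other core 2 genes, *Gcnt3* had at most 3 counts in any sample, and *Gcnt4* was at 2.73 to 4.39 CPM in the TEff samples and 1.62 to 4.66 CPM in the TRM-like samples. *C1galt1*, which makes the core 1 glycan they act on, was at 94.97 to 103.1 CPM in the TEff samples and 89.75 to 94.44 CPM in the TRM-like samples (log2 fold change -0.13, adjusted p = 0.686).

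Of 6 sulfation genes tested, 1 fell. *Chst2*, which encodes a sulfotransferase that acts on N-acetylglucosamine, was at 14.54, 12.91, and 13.98 CPM in the TEff replicates and 3.40, 4.41, and 4.66 CPM in the TRM-like replicates, without overlap (log2 fold change -1.73, SE 0.18, adjusted p = 0.00136). *Tpst2*, which sulfates the tyrosines of PSGL-1, was at 69.6 to 76.7 CPM and 47.5 to 55.6 CPM, and its log2 fold change of -0.52 was short of both limits (adjusted p = 0.0678).

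Among 10 selectin and scaffold genes tested, 0 were past the threshold by edgeR, DESeq2, or limma-voom, and 3 had an unadjusted edgeR p under 0.05 (*Selp*, *Spn*, and *Cd24a*). *Selp* and *Sele*, the genes of P- and E-selectin, had at most 11 and 4 counts in any sample. Of the most abundant pathway genes that were not past the threshold, *Spn*, the gene of CD43, another core 2 carrier, was at 149 ± 6.64 CPM per kilobase in the TEff samples and 112 ± 11.5 in the TRM-like samples (SD, n = 3), and its log2 fold change was -0.41 (adjusted p = 0.197). *Msn* and *Ezr*, which anchor such receptors to the cytoskeleton, were at 137 ± 9.68 and 113 ± 17.9 CPM per kilobase in the TEff samples and 118 ± 25.8 and 97.4 ± 14.2 in the TRM-like samples. *Nans*, a sialic acid synthase gene, was at 36.2 ± 5.44 and 34.1 ± 4.57 CPM per kilobase.

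**Figure D5:**
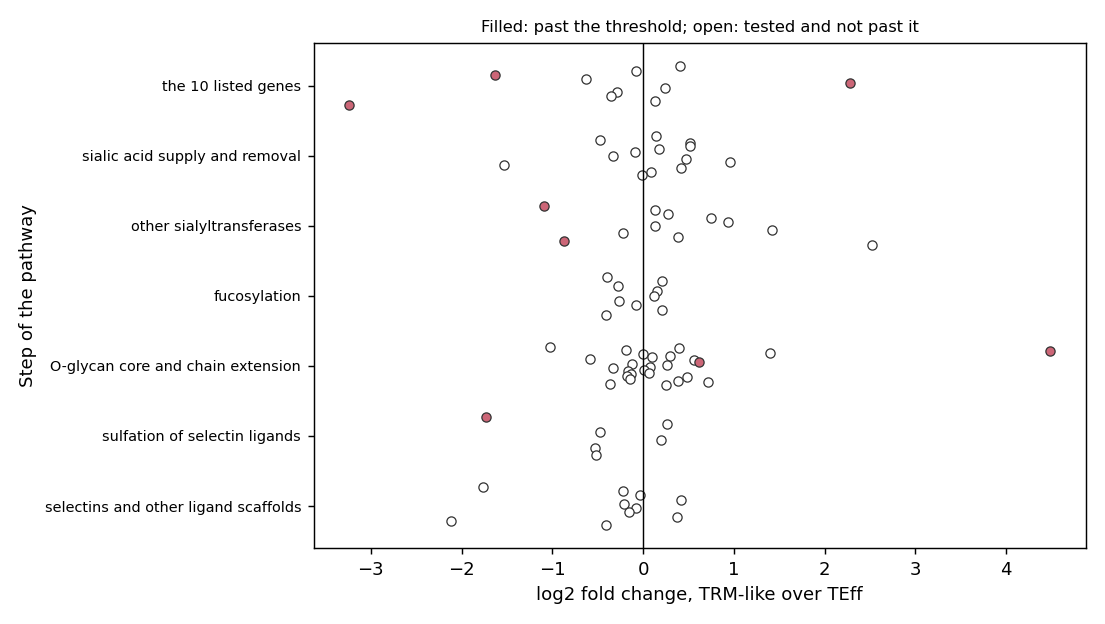
Log2 fold change, TRM-like over TEff, of the 10 listed genes and of 75 other tested genes of the pathway, by step, with filled points past the threshold and open points not. In the row of the 10 listed genes 2 filled points lie left of zero and 1 right of it, and in the rows below filled points lie left of zero for other sialyltransferases and sulfation and right of it for O-glycan core and chain extension. The filled point farthest right, *B3gnt7*, passed the filter on low counts through its TRM-like samples alone.

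Without TRM-like replicate 3, 14 of the pathway genes were past the threshold, the 5 above among them, and 14% of all genes tested were past it in that fit. The other 9 were *B3gnt8*, *B4galt5*, *Ctsa*, and *St8sia6* as higher and *B4galt4*, *Cd24a*, *Fut4*, *Gcnt4*, and *Tpst1* as lower. Leaving out any one of the other 5 samples left 1 pathway gene and 263 to 443 of all genes tested past the threshold. In each of those fits, as in the fit without TRM-like replicate 3, *St6gal1*, *Cmah*, and *Gcnt1* were past it.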

How the data were processed

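The authors trimmed the reads with Cutadapt 4.8 and used Rsubread to map and count them against GENCODE's GRCm39 annotation. The deposited values are raw counts per gene, not normalized, beside a gene length. The deposited length, the unit of which is bases, was used to scale levels per kilobase. The strand setting of the counting is not given in the sources used here. Of the 57126 gene identifiers, 56620 matched a later GENCODE release on the same build, which gave symbols and coordinates.

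Samples were grouped by their titles. The test was edgeR 4.0.16 in R 4.3.3 (TMM, glmQLFit, and glmQLFTest, 2-sided), on genes with a count in 3 or more samples, over all 6 samples and with no covariate, since the batch that the study's methods mention is not named there. A standard error is the log2 fold change divided by the square root of F. The edgeR fit was tested on simulated data. Alternatives were DESeq2 1.42.0, limma-voom (limma 3.58.1), other scalings, filters, and thresholds, the replicate number as a block, and each sample left out. The block over genes with 10 or more counts in each sample was chosen after seeing the data.

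The 10 genes and the pathway and marker lists were chosen with earlier results of these data known. The genes named by rule are the 10, the pathway genes past the threshold, and the 4 most abundant others. *Gcnt3*, *Gcnt4*, *Selp*, *Sele*, *Gne*, *Cmas*, *Tpst2*, *Fut4*, and *C1galt1*, and the ratios between enzymes, were chosen after their values were seen. Counting intervals cover counting error only. The values of 2 genes are not reported here, and the lists leave them out.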

Additional observations from a re-analysis of the deposited data

How the results depend on the processing

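Of the 10 genes, 3 were past the threshold under 15 of the 17 alternatives, and 4 (with *Fut7*) under the other 2, which were no filter and the replicate block. The log2 fold change of *St6gal1*, *Cmah*, and *Gcnt1* kept its sign and its call under all 17. Under the alternative that drops the fold limit, which reuses the main fit, they could not change. The count over all genes, 786 by edgeR, was 1256 with DESeq2, 1868 with no filter, 339 with glmTreat at a fold of 1.5, and 263 to 3579 with each sample left out, the highest without TRM-like replicate 3. The count of pathway genes, 5, was 3 with limma-voom, 3 with at least 10 counts in every sample, 1 with glmTreat, and 1 to 14 with each sample left out, the highest without TRM-like replicate 3. With the replicate block, 2034 genes were past the threshold over all genes tested and 7 of the pathway list (prior degrees of freedom infinite). Over genes with 10 or more counts in each sample the block gave 903 and 4. The numbers are not known to pair the samples. Deviations from the group means correlated at -0.28 between the samples numbered 1, 0.30 between those numbered 2, and 0.38 between those numbered 3, whereas TEff replicate 2 correlated best with TRM-like replicate 1 (0.51). The cause of these changes was not tested. Each of the 10 genes had at least 144 counts in every sample. The filter of 10 counts in each sample removed low pathway genes such as *B3gnt7*.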
